A study of Mus musculus with 11 samples.

Results

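The genes described here are the 10 members of the signalling cascade of ON bipolar cells that starts at the glutamate receptor mGluR6. They were chosen by name, with earlier results of these data known, out of 25311 genes in the count table. The members are Grm6, Trpm1, Gnao1, Gnb3, Gng13, Nyx, Gpr179, Rgs11, Pcp2 and Prkca. Their RNA was counted in single cells of whole dissociated mouse retinas at postnatal day 10 with inDrop, a droplet method that counts each captured RNA molecule by a unique molecular identifier (UMI). The control group was 3 mice given PBS (phosphate-buffered saline). The Phase I ROP group was 3 littermates of the controls that were made hyperglycemic by daily injections of streptozotocin (STZ), a toxin of insulin-producing cells, as a model of the first phase of retinopathy of prematurity (ROP). The other groups were 2 STZ mice whose nursing dam was fed a diet enriched with omega-3 (ω-3) long-chain polyunsaturated fatty acids and 3 STZ mice whose dam was fed the omega-6 (ω-6) counterpart. These 5 mice were littermates split between cages, so that diet, dam and cage cannot be told apart. All mice were on the C57BL/6J background, and the questions were how the cascade differed between Phase I ROP and control and between the diets.

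Photoreceptors release glutamate in the dark. On the dendrites of ON bipolar cells this glutamate acts on mGluR6, a receptor that, through the G protein Go, keeps the cation channel TRPM1 closed, and when light lowers the release of glutamate the channel opens and the cell depolarizes. The light response of ON bipolar cells is the source of the b-wave of the electroretinogram, and loss of the receptor, of the channel or of the proteins that hold them at the dendritic tip causes congenital stationary night blindness. In the retina, rod bipolar cells and several types of ON cone bipolar cells carry the cascade, while OFF cone bipolar cells answer glutamate through ionotropic receptors such as the kainate receptor subunit encoded by Grik1.

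In order of their roles, Grm6 encodes the receptor and Trpm1 the channel. Gnao1, Gnb3 and Gng13 encode the alpha, beta and gamma subunits of the G protein, of which the alpha subunit is common in neurons and the beta subunit is shared with cones. Nyx encodes nyctalopin, a leucine-rich repeat protein at the dendritic tip, and Gpr179 an orphan receptor that anchors the regulators of G protein signalling, among them Rgs11, which speeds the shutdown of Go. Pcp2 encodes a protein that binds Go and modulates it, and Prkca encodes protein kinase C alpha, the usual marker of rod bipolar cells.

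In the GENCODE M21 annotation of GRCm38 (chromosome, start, end), Grm6 lies at chr11:50850685-50866208 on the plus strand, Trpm1 at chr7:64153835-64269775 (plus), Gnao1 at chr8:93809966-93969388 (plus), Gnb3 at chr6:124834240-124840275 (minus) and Gng13 at chr17:25717171-25719406 (plus). Nyx lies at chrX:13466110-13489313 (plus), Gpr179 at chr11:97332109-97352077 (minus), Rgs11 at chr17:26202951-26211324 (plus), Pcp2 at chr8:3623371-3625545 (minus) and Prkca at chr11:107933387-108343928 (minus). Some members share exonic bases with a gene on the other strand. Pet100, a gene for an assembly factor of cytochrome c oxidase, covered 51.5% of the exonic bases of Pcp2. Chtf18, a gene for a subunit of a clamp loader of DNA replication, covered 51.6% of those of Gng13. The antisense gene Gm12660 covered 11.1% of Grm6, Arhgdig 3.28% of Rgs11, 4930488L21Rik 2.57% of Gnao1 and Apoh 0.33% of Prkca. Whether the counting used strand is not given in the sources used here, so the reads of such a pair cannot be told apart, and this holds for every value of Pcp2, Gng13 and Grm6. Both genes of these pairs, the second of them picked once its values had been seen, are given with the Phase I ROP results of ON bipolar cells.

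The starts of 8 of the 10 members were in the table of RefSeq promoters of GRCm38.p6, with 13 starts in all. The 250 bases before the start are shown for the channel Trpm1, for Gpr179, for Gng13 and for the receptor Grm6. They were picked because in Phase I ROP the first and second were called higher, the third lower and the last was not called. Capitals mark the motif TAATCC, the core of the sites of the photoreceptor and bipolar factors Crx and Otx2, searched on both strands. 
Trpm1, chr7:64153585-64153834, plus strand: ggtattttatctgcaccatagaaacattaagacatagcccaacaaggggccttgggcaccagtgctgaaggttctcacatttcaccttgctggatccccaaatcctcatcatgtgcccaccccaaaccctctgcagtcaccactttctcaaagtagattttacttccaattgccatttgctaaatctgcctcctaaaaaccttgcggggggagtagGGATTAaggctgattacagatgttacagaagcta
Gpr179, chr11:97352357-97352606, minus strand: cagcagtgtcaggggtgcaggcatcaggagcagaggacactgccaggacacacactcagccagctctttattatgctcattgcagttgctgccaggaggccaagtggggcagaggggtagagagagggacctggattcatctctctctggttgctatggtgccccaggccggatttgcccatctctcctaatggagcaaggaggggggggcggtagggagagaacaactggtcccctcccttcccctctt
Gng13, chr17:25716922-25717171, plus strand: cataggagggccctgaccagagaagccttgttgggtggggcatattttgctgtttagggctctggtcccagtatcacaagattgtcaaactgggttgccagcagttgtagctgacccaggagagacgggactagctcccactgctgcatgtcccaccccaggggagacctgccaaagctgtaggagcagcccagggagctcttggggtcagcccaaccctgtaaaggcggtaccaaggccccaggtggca
Grm6, chr11:50850435-50850684, plus strand: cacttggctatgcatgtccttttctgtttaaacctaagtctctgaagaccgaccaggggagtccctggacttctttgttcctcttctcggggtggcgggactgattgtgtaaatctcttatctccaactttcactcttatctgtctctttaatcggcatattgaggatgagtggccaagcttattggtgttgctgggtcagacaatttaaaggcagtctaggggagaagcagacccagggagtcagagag
Among the 13 member promoters the motif was found in 1, that of Trpm1, where it lies on the minus strand and starts 34 bases before the start. It was found in 6.25% of 32851 promoters of the same length. The homeodomain core TAATTA, which reads the same on both strands, was found in 1 member promoter, that of Pcp2 with its start at base 3625282, and in 4.84% of all promoters. The shown windows of Trpm1, Gpr179, Gng13 and Grm6 held 1, 2, 2 and 4 CpG dinucleotides. Trpm1 and Gng13 each have another start, whose windows are not shown and held 4 and 25 of them. That window of Gng13 had a GC content of 69.2%. The windows of Gnao1 and Prkca, which were counted in many cell classes, held 36 and 39 of them and had a GC content of 76.4% and 76.8%, against a median of 52.4% over all promoters. A match is a description of the sequence and was not tied to any measurement.

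Of 20067 deposited cells, 20033 had more than 300 genes and were clustered. The class called ON bipolar cells was 1 cluster of 2669 cells. Its leading genes other than the members included Pet100, Isl1, Trnp1, Bhlhe23, Ndnf, Chtf18, Cabp5, Neurod4 and St18, of which Isl1 and Bhlhe23 are markers of ON bipolar cells and Cabp5 and Neurod4 of bipolar cells. The ON markers Isl1, Car8, Sebox, Vstm2b and Bhlhe23 had UMIs in this cluster in every mouse. A second cluster of 927 cells was led by Grik1, Scgn and Vsx1 and is called Grik1 cone bipolar cells. Rods (9967 cells), amacrine cells (3287), Müller glia (1425) and cones (1126) were the other classes compared. When the members were kept out of the clustering, 97.3% of the ON bipolar cells and 96.0% of the Grik1 cone bipolar cells stayed in their class.

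Total UMIs per mouse ran from 2565568 to 6517776, and the sums over ON bipolar cells from 366728 to 846930. The number of mice and these sums limit the precision of each value, most of all for members with few UMIs such as Nyx. The control libraries stood apart from all 8 STZ libraries in ON bipolar cells. The mitochondrial ribosomal RNA mt-Rnr2 was at 18302 to 25875 CPM (UMIs of a gene per 1000000 UMIs of the class in that mouse) in control mice and at 2664 to 7962 CPM in STZ mice, and the small nuclear RNA Rn7sk at 128 to 216 CPM against 0 to 4.16 CPM. The 12 rod markers, none of them at 0 in any mouse, summed to 915 to 1537 CPM in control, 1673 to 2888 CPM in Phase I ROP, 3783 to 4062 CPM in the ω-3 mice and 2080 to 3224 CPM in the ω-6 mice. The 7 markers of retinal pigment epithelium summed to 474 to 670 CPM in control and 117 to 176 CPM in STZ mice, with up to 4 of them at 0. The 15 amacrine markers, with up to 3 of them at 0 in these groups, summed to 152 to 235 CPM in control and 308 to 360 CPM in Phase I ROP, and the 8 cone markers, with up to 4 at 0, to 96.2 to 135 CPM and 155 to 559 CPM. The ON bipolar markers, which are no members, summed to 1451 to 1728 CPM in control and 2376 to 2738 CPM in Phase I ROP. Median UMIs per ON bipolar cell ran from 2361 to 3466 in control mice and from 1693 to 1899 in Phase I ROP mice. Rn7sk and mt-Rnr2 were picked after their values were seen. The part of these differences in the results was not tested. Of 18872 distinct cell barcodes, 1157 were found in more than 1 library.

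Grm6, Trpm1, Gnao1, Gng13, Nyx, Gpr179, Pcp2 and Prkca were highest in ON bipolar cells among the 6 main classes in each of the 11 mice. Gnb3 was highest in cones in all 11 mice, and Rgs11 was highest in ON bipolar cells in 7 mice and in Grik1 cone bipolar cells in 4. The classes were made by clustering the same cells, so these levels are a description with no test. Grm6 had a mean of 426 ± 95.7 CPM (SD, n = 11 mice) in ON bipolar cells, and its highest value in any mouse was 65.6 CPM in Grik1 cone bipolar cells and 38.1 CPM in rods. Trpm1 had 869 ± 427 CPM in ON bipolar cells, and its highest value was 79.6 CPM in Grik1 cone bipolar cells, 97.3 CPM in rods and 98.1 CPM in Müller glia. In the 75 cells of retinal pigment epithelium, however, Trpm1, which is also active in pigment cells, had 50 UMIs, or 482 CPM (95% Poisson interval of 358 to 636, for counting error only). Grm6 had 0 UMIs in these cells, with an upper limit of 35.6 CPM by the same kind of interval.

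The G protein subunits were spread differently. Gnao1 had a mean of 1674 ± 634 CPM in ON bipolar cells, 684 ± 206 CPM in amacrine cells and 568 ± 220.4 CPM in Grik1 cone bipolar cells, and 77.0 CPM as a median in rods. In the 96 retinal ganglion cells, pooled over mice, Gnao1 had 2058 UMIs or 1428 CPM (95% Poisson interval of 1367 to 1492). Gnb3 had 1689 ± 498 CPM in cones, 1052 ± 189.7 CPM in ON bipolar cells, 276 ± 107 CPM in Grik1 cone bipolar cells and 248 ± 69.1 CPM in rods. Gng13 had 224 ± 170.0 CPM in ON bipolar cells and at most 39.6 CPM in the Grik1 class, 16.9 CPM in rods and 3.62 CPM in cones.

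Among the other members, Gpr179 had 193 ± 98.9 CPM in ON bipolar cells and at most 38.1 CPM in another class, and Pcp2 had 1276 ± 514 CPM against at most 93.4 CPM. Prkca was less restricted: it had 1092 ± 448 CPM in ON bipolar cells, 157 ± 47.6 CPM in amacrine cells and 103 ± 39.6 CPM in rods. Rgs11 did not separate the bipolar clusters. It had 52.6 ± 16.4 CPM in ON bipolar cells and 51.5 ± 17.7 CPM in Grik1 cone bipolar cells, a difference smaller than the spread between mice. Nyx was the least counted member, with 22.8 ± 12.5 CPM in ON bipolar cells and 3 to 30 UMIs per mouse.

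**Figure D1:**
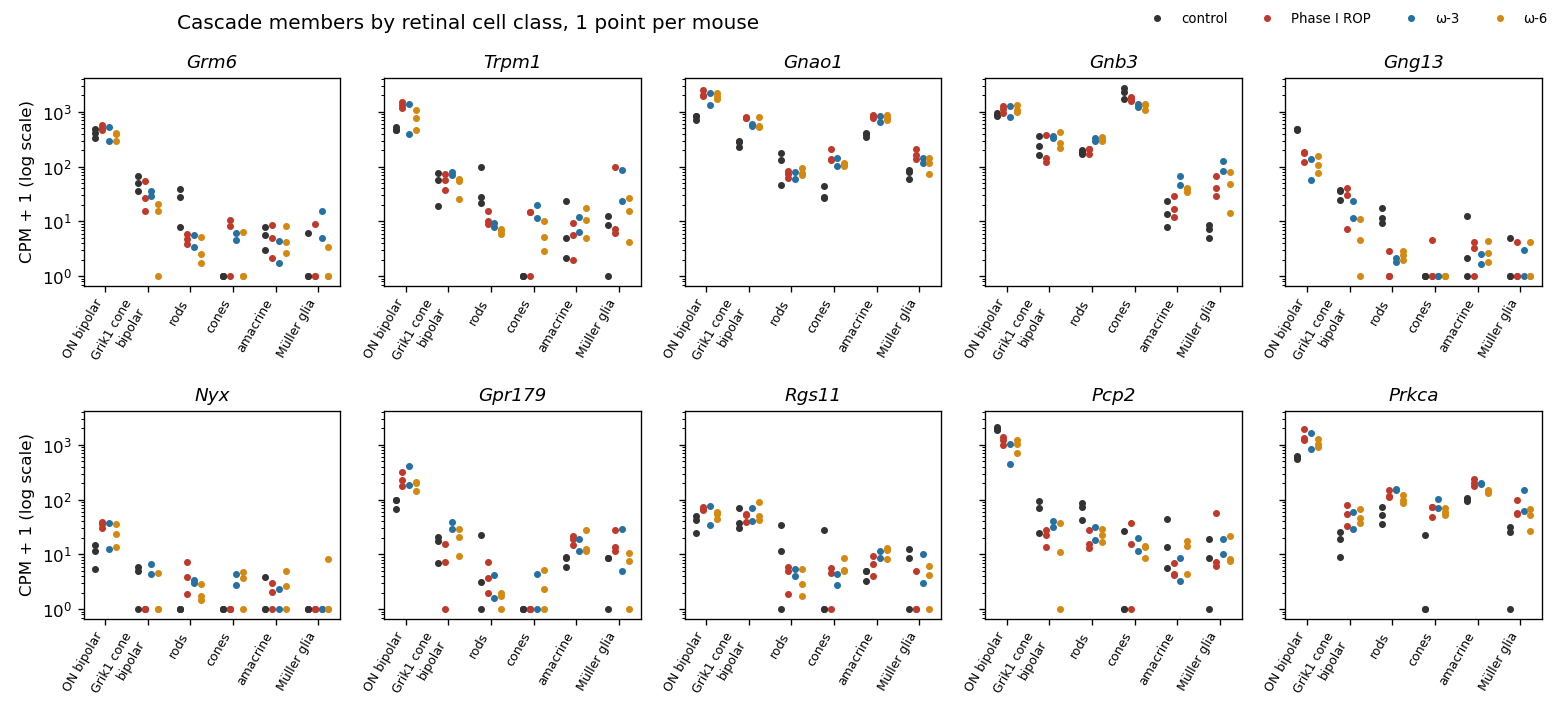
CPM plus 1 on a log axis for the 10 members in 6 retinal cell classes, with 1 point per mouse and colours for the 4 groups. Most members stand highest in ON bipolar cells, Gnb3 stands highest in cones with a mean of 1689 CPM, and Rgs11 lies at similar levels in both bipolar classes.

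The share of cells with a UMI followed the same order. To compare classes of different depth, each cell was thinned to 800 UMIs, which left out 309 of 2669 ON bipolar cells and 2871 of 9967 rods with fewer UMIs. Grm6 was then found in a median of 21.7% of ON bipolar cells per mouse and 0.21% of rods, Trpm1 in 23.3% and 0.41%, and Pcp2 in 33.8% and 1.65%. Rods should lack these genes, so the shares in rods were taken as the background, at median depths of 786 to 1662 UMIs per rod and 1693 to 3466 UMIs per ON bipolar cell before thinning. Without thinning, Grm6 was found in 42.8% of ON bipolar cells as a mean over mice.

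The members found per cell were also counted, without a comparison to the number that independent detection would give. At 800 UMIs, an ON bipolar cell held between 2.15 and 2.27 of the 10 members on average in control mice, 2.64 to 3.10 in Phase I ROP mice, 1.74 to 3.05 in ω-3 mice and 1.79 to 2.64 in ω-6 mice. The share with at least 3 members was 34.5 to 38.3% in control mice and 47.4 to 55.8% in Phase I ROP mice, and at most 2.90% in rods. Without thinning the ranges overlapped, at 54.8 to 71.3% in control and 58.7 to 66.3% in Phase I ROP, where the control cells were deeper. The cluster also held cells without a sign of the cascade: without thinning, 17.2 to 29.9% of the ON bipolar cells of control mice and 24.9 to 30.9% of those of Phase I ROP mice had no UMI of the 8 members other than Gnao1 and Gnb3.

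Bipolar cells were clustered again without the members, into 10 subclusters that are described with no test because they were chosen after their values were seen. Grm6, Trpm1, Gnao1, Gng13, Gpr179, Pcp2 and Prkca had their highest median over STZ mice in 1 subcluster of 565 cells. Gnb3 and Rgs11 had medians of 1496 and 91.5 CPM there, against 1567 and 116 CPM in another of 252 cells. Nyx had a median of 25.6 CPM there, against 42.2 CPM in another of 513 cells. The subcluster of 565 cells was led by Ablim1, Car8, Pet100, Il1rap and Vstm2b with Sebox close behind, of which Car8, Vstm2b and Sebox are among the ON markers. It held 9.63 to 20.6% of the bipolar cells of each mouse. In its control mice, Pcp2 was at 5131 to 5620 CPM, Prkca at 1615 to 1892 CPM, Trpm1 at 1304 to 1768 CPM and Gng13 at 1272 to 1451 CPM. In the Phase I ROP mice of the same subcluster, Pcp2 was at 2911 to 4293 CPM and Gng13 at 309 to 571 CPM, both below all control mice. Trpm1 was at 3297 to 4600 CPM, Prkca at 4270 to 5484 CPM and Gnao1 at 3475 to 4094 CPM, above all control mice, while Grm6 was at 886 to 1000 CPM against 673 to 710 CPM. The subcluster of 252 cells, led by Reln, Unc13c, Pcp4l1, Rprm and Vsx1, had the receptor and the channel with little Pcp2. Over its 8 STZ mice, Grm6 was at 508 to 986 CPM and Trpm1 at 551 to 1024 CPM, while Pcp2 was at 15.5 to 114 CPM and Prkca at 0 to 408 CPM.

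Subclusters did not sort the groups alike. One subcluster of 598 cells came to 92.0% from control mice and held 46.0 to 64.9% of their bipolar cells, against at most 4.90% in any STZ mouse. It was led by Als2cl, Gm37663, T2, 4833417C18Rik and Coa4, which are no markers of a bipolar type. In its control mice Trpm1 was at 117 to 257 CPM, Prkca at 142 to 355 CPM, Gpr179 at 47.3 to 56.3 CPM, Pcp2 at 550 to 1091 CPM and Gng13 at 81.6 to 276 CPM, each of them below all control mice of the subcluster of 565 cells. Of the ON bipolar cells it held 124 of 209, 129 of 194 and 137 of 321 in the 3 control mice, and 16 of 259, 1 of 181 and 4 of 272 in the Phase I ROP mice. Another 4 were led by genes of amacrine cells (Tfap2b, Crabp1 and Gad1), of rods (Nr2e3 and Pdc among them), by Emp1 and Gsto1 with Fabp7 and Crym, or by genes that mark no bipolar type.

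In Phase I ROP, 7 of the 10 members were called in ON bipolar cells, 5 of them higher and 2 lower (edgeR's quasi-likelihood test on the UMIs summed per mouse, with Benjamini-Hochberg adjustment over 8730 genes). The channel Trpm1, the G protein alpha subunit Gnao1, Nyx, Gpr179 and Prkca rose by 1.96 to 2.79 times, and the gamma subunit Gng13 and the modulator Pcp2 fell. The receptor Grm6, the beta subunit Gnb3 and Rgs11 did not pass the test. The calls of Trpm1, Gpr179 and Prkca were lost without the subcluster that came mostly from control mice. Without it, in a fit chosen after seeing the data, 4 members were called by edgeR, where 32.0% of all genes were (14.4% as higher and 17.6% as lower). Gnao1 (log2 difference 0.81, adjusted p = 9.48e-04) and Nyx (2.09, adjusted p = 0.010) were still higher and Gng13 (-2.77, adjusted p = 4.99e-09) and Pcp2 (-1.84, adjusted p = 1.19e-06) still lower by edgeR. Trpm1 then differed by 0.16 (adjusted p = 0.47), Prkca by 0.13 (adjusted p = 0.60) and Gpr179 by 0.56 (adjusted p = 0.13 by edgeR). That fit left out 124 of 209, 129 of 194 and 137 of 321 ON bipolar cells of the control mice, but few of the Phase I ROP mice. It also left unlike mixes of subclusters. The subcluster of 565 cells then made up 39 of 85, 29 of 65 and 70 of 184 ON bipolar cells in control. In Phase I ROP it made up 63 of 243, 52 of 180 and 58 of 268. The part of this mix in the differences of that fit was not tested. Within the subcluster of 565 cells, Trpm1, Gpr179 and Prkca were higher in the Phase I ROP mice than in all control mice, as a description with no test. All 10 members passed the filter on low counts in the analysis of all ON bipolar cells, but Nyx passed it through the Phase I ROP mice alone. The call must be read against the background, since 40.7% of all genes tested in these cells were called, 19.0% as higher and 21.7% as lower. The median log2 difference was 0.72 over the members and 0.02 over all genes.

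Grm6 was at 488, 329 and 420 CPM in the control mice and at 498, 573 and 469 CPM in the Phase I ROP mice. The groups overlapped, with 1 control mouse above the lowest Phase I ROP mouse. The log2 difference of Phase I ROP minus control was -0.05 ± 0.15 (SE, adjusted p = 0.80 by edgeR). Its antisense neighbour Gm12660 fell by 1.73 on the log2 scale (SE 0.23, adjusted p = 3.94e-05 by edgeR), from 140 to 225 CPM in control to 64.4 to 90.0 CPM. When the UMIs of overlapping genes were added to the member, Grm6 was called lower, by 0.41 on the log2 scale (adjusted p = 0.043 by edgeR).

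Trpm1 was at 524, 474 and 472 CPM in control and at 1173, 1508 and 1315 CPM in Phase I ROP, so that the lowest Phase I ROP mouse stood above the highest control mouse by more than their whole spread. Its log2 difference was 1.07 ± 0.13 (SE, adjusted p = 1.63e-05 by edgeR), and 0.16 without the subcluster mostly of control cells, as given above. The share of ON bipolar cells with a UMI of Trpm1 at 800 UMIs was 21.2 to 23.3% in control and 32.1 to 44.2% in Phase I ROP.

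Of the G protein, the alpha and gamma subunits moved in opposite directions. Gnao1 was at 714, 859 and 829 CPM in control and at 1981, 2533 and 2010 CPM in Phase I ROP, a log2 difference of 1.07 ± 0.14 (adjusted p = 3.28e-05 by edgeR). Gng13 was at 486, 475 and 483 CPM in control and at 123, 188 and 177 CPM in Phase I ROP. It had the largest difference of the members, -1.94 ± 0.16 (adjusted p = 5.6e-07 by edgeR), and its groups did not overlap. Gnb3 was at 856, 878 and 964 CPM in control and 940, 1293 and 1112 CPM in Phase I ROP, with overlapping groups and a log2 difference of -0.06 ± 0.13 (adjusted p = 0.72 by edgeR).

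**Figure D2:**
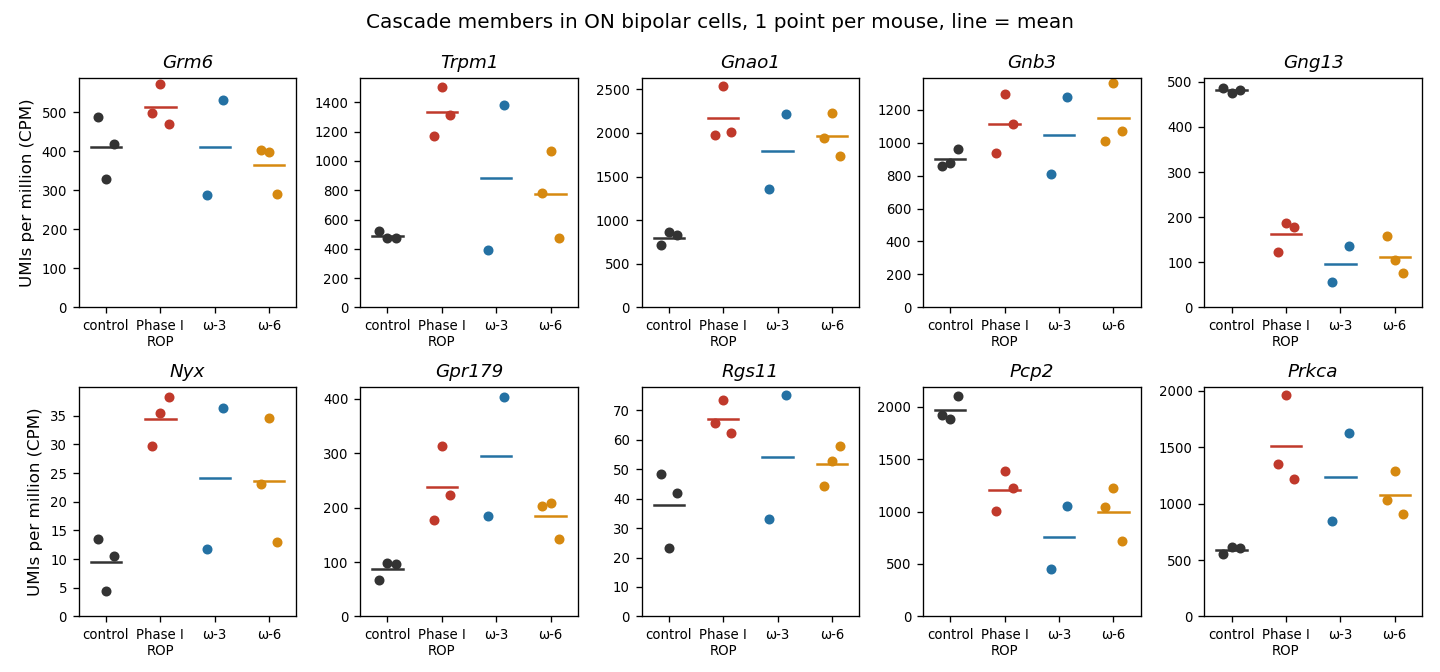
CPM of the 10 members in ON bipolar cells by group, with 1 point per mouse and a line at each group's mean. Trpm1, Gnao1, Nyx, Gpr179, Prkca and Rgs11 stand higher in all 3 Phase I ROP mice than in all 3 control mice, and Gng13 and Pcp2 stand lower.

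Among the anchors and regulators, Gpr179 was at 66.4, 97.7 and 96.8 CPM in control and at 178, 314 and 224 CPM in Phase I ROP (log2 difference 1.07 ± 0.22, adjusted p = 0.0015 by edgeR). Nyx had only 9, 3 and 8 UMIs in the control mice and 14, 13 and 19 UMIs in the Phase I ROP mice, or 4.35 to 13.6 CPM against 29.7 to 38.3 CPM. Its log2 difference was 1.48 ± 0.43 (adjusted p = 0.013 by edgeR). Because the filter was met by the Phase I ROP mice alone, a higher value there was favoured by the filter, and without a filter the difference was 1.48 (adjusted p = 0.021 by edgeR). That call was lost without control replicate 2, at a log2 difference of 1.11 and an adjusted p of 0.070 by edgeR, and without Phase I ROP replicate 3, at 1.39 and 0.068. Rgs11 was at 48.3, 23.3 and 41.9 CPM in control and at 65.8, 73.6 and 62.4 CPM in Phase I ROP. Although these values did not overlap, the log2 difference after scaling was 0.46 ± 0.31 and did not pass the test (adjusted p = 0.25 by edgeR).

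Pcp2 was at 1920, 1885 and 2102 CPM in control and at 1005, 1388 and 1225 CPM in Phase I ROP, a log2 difference of -1.08 ± 0.14 (adjusted p = 2.95e-05 by edgeR). Prkca was at 553, 617 and 611 CPM in control and at 1355, 1961 and 1217 CPM in Phase I ROP, a log2 difference of 0.97 ± 0.16 (adjusted p = 2.25e-04 by edgeR). These markers of rod bipolar cells moved in opposite directions in the same cells, with no overlap between the groups in either.

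The fitted differences use TMM scaling (trimmed mean of M-values), whereas CPM divides by the total alone. Scaling by total UMIs raised the median of all genes in ON bipolar cells by 0.39 on the log2 scale and turned the split of calls from 46.8% higher to 73.7% higher. Under that scaling, chosen after seeing the data, Trpm1, Gnao1, Nyx, Gpr179 and Prkca stayed higher and Gng13 and Pcp2 lower, but Rgs11 was called higher (log2 difference 0.84, adjusted p = 0.037 by edgeR), and Grm6 and Gnb3 turned to 0.34 and 0.33 without a call.

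**Figure D3:**
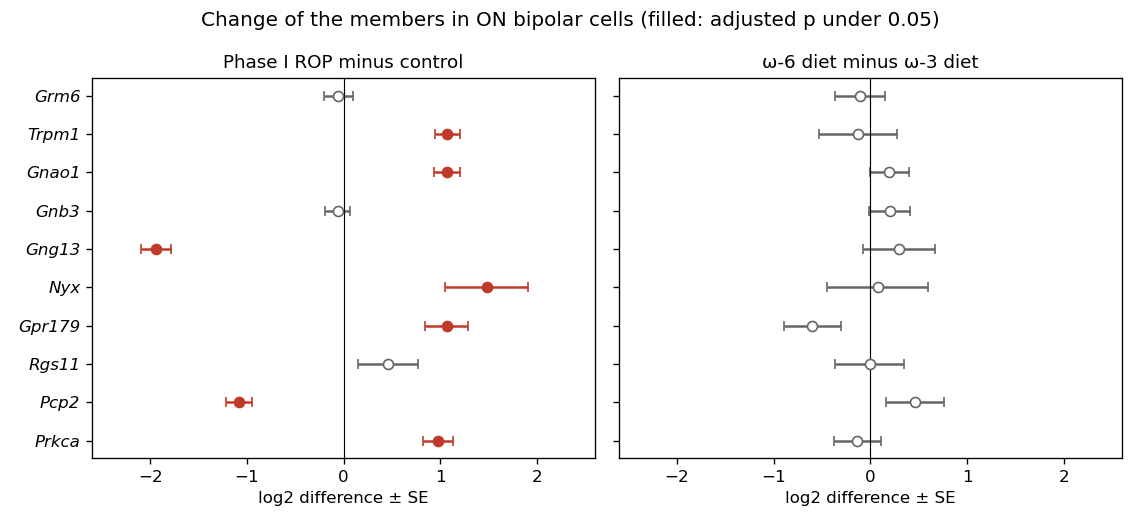
Log2 difference with its SE for each member in ON bipolar cells, for Phase I ROP minus control at the left and ω-6 minus ω-3 at the right, with filled points for an adjusted p under 0.05. The left panel shows 7 filled points, from -1.94 for Gng13 to 1.48 for Nyx, and the right panel shows none.

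Both members that fell share their exons with another gene that fell as well. Pet100 was at 1612 to 1835 CPM in control and 808 to 1137 CPM in Phase I ROP (log2 difference -1.20 ± 0.14, adjusted p = 1.17e-05 by edgeR). Chtf18 was at 300.4 to 314 CPM in control and 91.2 to 109 CPM in Phase I ROP (log2 difference -2.00 ± 0.16, adjusted p = 5.6e-07 by edgeR). With the UMIs of overlapping genes added, Pcp2 fell by 1.13 and Gng13 by 1.96 on the log2 scale. No member that rose shares more than 2.57% of its exonic bases with another gene.

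**Figure D4:**
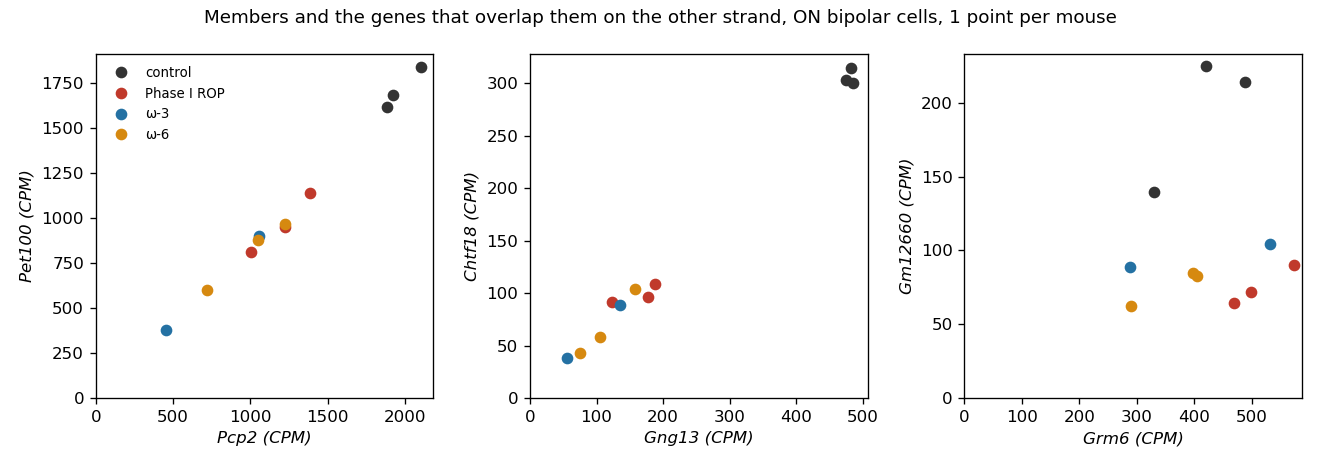
CPM in ON bipolar cells of Pet100 against Pcp2, Chtf18 against Gng13 and Gm12660 against Grm6, with 1 point per mouse and colours for the 4 groups. The control mice stand apart from all STZ mice on both axes for Pet100 and Pcp2 and for Chtf18 and Gng13, whereas for Grm6 they stand apart in Gm12660 alone, at 140 CPM or more.

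The direction of the members also went with the length of their transcripts. The 5 members that rose have a longest annotated transcript of 5183 to 9219 bases, and those that fell of 719 bases (Gng13) and 1606 bases (Pcp2). Over 8582 genes tested in ON bipolar cells with a known length (98.3%), the median log2 difference was -0.83 for transcripts of up to 1000 bases, -0.43 from there to 2000 bases, -0.10 to 3000 bases, 0.27 to 5000 bases and 0.47 above 5000 bases. Of the shortest genes 60.4% were called lower, and of the longest 32.5% were called higher. Within their length classes, Gng13 was lower than all but 6.04% of the genes and Pcp2 than all but 17.2%, while Nyx stood above 90.5%, Trpm1 above 78.2%, Gnao1 above 78.1%, Gpr179 above 77.9% and Prkca above 74.4%. The members that rose thus lay in the upper part of a class of genes that was shifted upward as a whole. Nyx passed the filter on low counts through the Phase I ROP mice alone, so that its place in this ranking was favoured by the filter. Grm6, with 4330 bases, stood above 34.3% of the genes of its class. The part of transcript length in the member changes was not tested.

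**Figure D5:**
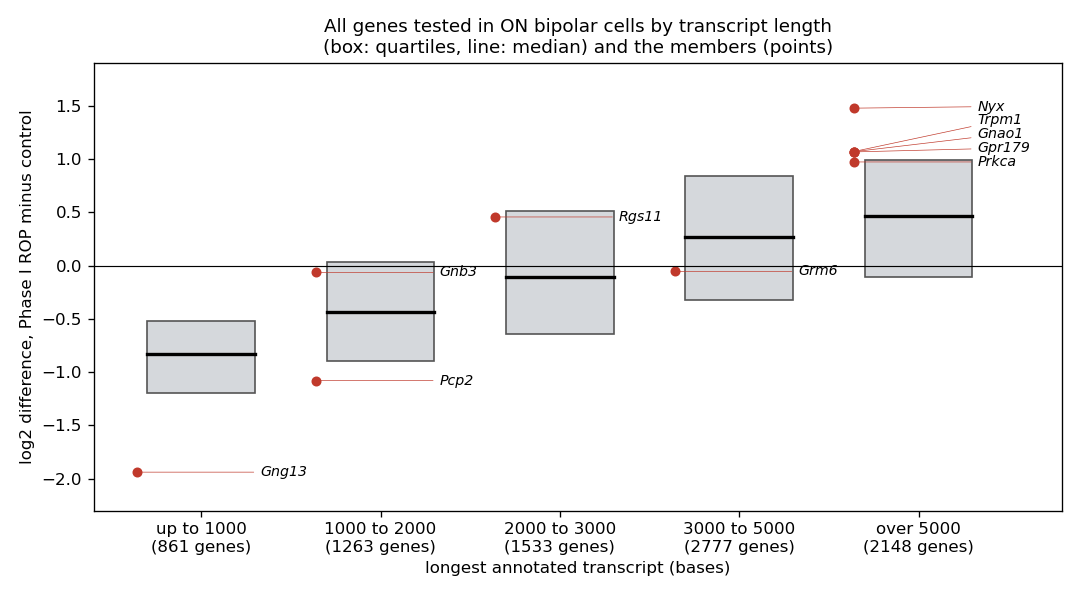
Log2 difference of Phase I ROP minus control for all genes tested in ON bipolar cells, grouped by the length of the longest annotated transcript in bases, with boxes for the quartiles, lines for the medians and red points for the members. The medians climb from -0.83 in the shortest to 0.47 in the longest class, and Gng13 and Pcp2 lie below their boxes.

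The calls in ON bipolar cells held without the 4 subclusters led by genes of other cell types or of no bipolar type, where the subcluster mostly of control cells was kept. Without those 4, Gng13 fell by 1.76 and Pcp2 by 0.93, and Trpm1 was higher by 1.21, Gnao1 by 1.24, Gpr179 by 1.25, Prkca by 1.17 and Nyx by 1.70 on the log2 scale, all of them called. Over all bipolar cells the same 7 members were called, with Gng13 at -1.99 ± 0.15, Pcp2 at -1.19 ± 0.12, Nyx at 1.25 ± 0.42, Gnao1 at 1.00 ± 0.12, Trpm1 at 0.95 ± 0.12, Gpr179 at 0.91 ± 0.22 and Prkca at 0.88 ± 0.15, against 45.3% of all genes called (21.3% as higher and 23.9% as lower). There too Nyx passed the filter through the Phase I ROP mice alone, and its call was lost in 6 of 19 alternatives (DESeq2, all 4 groups in 1 fit, without control replicate 2 and without each Phase I ROP mouse), with adjusted p-values of 0.0501 to 0.12 and log2 differences of 0.90 to 1.31. Without the subcluster mostly of control cells, the calls of Trpm1 (0.073), Prkca (0.041) and Gpr179 (0.40) were lost over all bipolar cells as well.

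Outside ON bipolar cells few members passed the filter on low counts. Gnao1 rose in 4 other classes: by a log2 difference of 1.37 ± 0.19 in Grik1 cone bipolar cells (adjusted p = 2.86e-05), 0.78 ± 0.12 in amacrine cells (adjusted p = 2.22e-04), 1.05 ± 0.29 in Müller glia (adjusted p = 0.031) and 1.97 ± 0.57 in cones (adjusted p = 0.019, all by edgeR). The background of called genes was 38.0% in the first of these classes (19.2% higher, 18.7% lower), 38.8% in amacrine cells (18.3% higher, 20.5% lower), 10.8% in Müller glia (5.81% higher, 5.03% lower) and 18.8% in cones (10.9% higher, 7.90% lower). In amacrine cells Gnao1 was at 348, 389 and 407 CPM in control and at 787, 863 and 853 CPM in Phase I ROP. The calls of Gnao1 in cones and in Müller glia were lost in 3 and in 5 of the 6 analyses that left out 1 mouse, at log2 differences of 1.77 to 2.52 and 0.87 to 1.16, and the smallest number of cones in any mouse was 13. In cones Gnao1 passed the filter through the Phase I ROP mice alone, and without a filter its difference was 2.22 (adjusted p = 0.019 by edgeR). In rods Gnao1 was at 132, 173 and 46.1 CPM in control and 84.0, 71.9 and 60.2 CPM in Phase I ROP, and it did not pass the test (-0.97 ± 0.37, adjusted p = 0.050).

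Prkca rose in amacrine cells (0.69 ± 0.15, adjusted p = 0.0028) and in rods (0.96 ± 0.31, adjusted p = 0.021, both by edgeR), where 38.1% of all genes were called (18.4% as higher and 19.7% as lower). The call in rods was lost without control replicate 3 (log2 difference 0.74) and without Phase I ROP replicate 3 (0.86), and also with sums thinned to equal depth (0.61, adjusted p = 0.17 by edgeR) and with cells of more than 500 genes (0.75, adjusted p = 0.091 by edgeR). In rods Prkca was at 52.1, 71.9 and 35.6 CPM in control and 115, 109 and 151 CPM in Phase I ROP. Trpm1 and Pcp2 were low in rods. All 3 control mice reached the filter's minimum for both genes, against 0 Phase I ROP mice for Trpm1 and 1 for Pcp2. Lower values in Phase I ROP were thus favoured by the filter. Both genes are given here with no test, although they count among the 3 members called in rods. Trpm1 was at 20.8, 97.3 and 27.3 CPM in control and at most 14.4 CPM in Phase I ROP, and Pcp2 was at 86.8, 42.3 and 73.4 CPM against at most 27.3 CPM. Over all mice the level in rods had a median of 0.95% of that in ON bipolar cells for Trpm1 and 2.24% for Pcp2. In the same mice, bipolar cells were 29.9 to 33.7% of all cells in control and 15.9 to 18.0% in Phase I ROP, and the part of free bipolar RNA in the rod values was not tested.

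That share of bipolar cells was 31.9 ± 1.92% in control and 17.0 ± 1.06% in Phase I ROP (SD, n = 3 mice each, exact two-sided permutation test, p = 0.10, the smallest p that 3 against 3 mice can give). ON bipolar cells were 71.8 ± 1.55% of the bipolar cells in control and 73.5 ± 1.46% in Phase I ROP (exact two-sided permutation test, p = 0.30). This share does not show the mix of subclusters within them, which differed between the groups, as given above. In the sum over the whole retina, where 48.1% of all genes were called (24.7% as higher and 23.4% as lower), a lower level of a member and fewer of its cells cannot be told apart. There Grm6 was called lower (-0.76 ± 0.13, adjusted p = 7.29e-04), as were Gng13 (-2.57 ± 0.15, adjusted p = 1.71e-06) and Pcp2 (-1.74 ± 0.12, adjusted p = 2.17e-06). Gnao1 (0.46 ± 0.12, adjusted p = 0.0083), Prkca (0.51 ± 0.14, adjusted p = 0.0097) and Trpm1 (0.32 ± 0.12, adjusted p = 0.048) were called higher by edgeR, and the last of them was not called by DESeq2, where its adjusted p was 0.12.

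The difference between classes was tested on its own. Between ON bipolar and Grik1 cone bipolar cells, 0 of the 9 members tested differed in their change by edgeR, where 0.0132% of all genes were called. Unadjusted p-values were under 0.05 for Trpm1 (a log2 difference of the changes of 1.27 ± 0.41, adjusted p = 0.77) and for Gpr179 (2.50 ± 0.88, adjusted p = 0.79). For Gnao1, the difference was -0.16 ± 0.18. Between all bipolar cells and amacrine cells 0 of 10 members were called by edgeR, where 1.82% of all genes were. Trpm1 alone had an unadjusted p under 0.05 in that edgeR fit (2.16 ± 0.70, adjusted p = 0.16). No member was shown to change differently in these classes.

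Of the known partners of the cascade, 12 of 15 could be tested in ON bipolar cells of Phase I ROP and control mice, and 7 rose and 1 fell, with a median log2 difference of 0.97 over the 12, where 40.7% of all genes were called (19.0% as higher and 21.7% as lower). The list and its members were chosen with earlier results of these data known. The leucine-rich repeat proteins Lrit1 (1.07 ± 0.32, adjusted p = 0.014) and Lrit2 (1.28 ± 0.33, adjusted p = 0.0064) rose, and so did Dag1 (2.06 ± 0.30, adjusted p = 9.87e-05), which encodes dystroglycan of the photoreceptor synapse. Tpbg (2.42 ± 0.53, adjusted p = 0.0023), a membrane glycoprotein of rod bipolar cells, Rgs9bp (1.09 ± 0.27, adjusted p = 0.0046), a membrane anchor of regulators of G protein signalling, and Ric8b (1.92 ± 0.44, adjusted p = 0.0028), a G protein chaperone, rose as well. Cacna2d4 (0.52 ± 0.14, adjusted p = 0.0079), a calcium channel subunit, completed the 7. Gsg1 fell (-1.15 ± 0.22, adjusted p = 7.93e-04, all by edgeR). The regulators Rgs7 (0.28 ± 0.28) and Gnb5 (-0.09 ± 0.16), which form complexes with Gpr179, and Cacna1f (0.87 ± 0.36), the calcium channel of the photoreceptor synapse, did not pass the test. Tpbg and Ric8b, which are counted among the 7, passed the filter on low counts through the Phase I ROP mice alone, so that their rise was favoured by the filter. Without the subcluster mostly of control cells, 3 of 11 partners tested were called higher (Dag1, Lrit2 and Ric8b) and 1 lower (Gnb5) by edgeR, against 14.4% and 17.6% of all genes.

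Of 37 relatives of the members, 20 could be tested, and 6 rose and 4 fell, with a median log2 difference of 0.39. These counts stand beside 40.7% of all genes called, 19.0% as higher and 21.7% as lower. The inhibitory alpha subunit Gnai3 (1.41 ± 0.34, adjusted p = 0.0043), the gamma subunit Gng5 (1.07 ± 0.39, adjusted p = 0.040), the regulator Rgs16 (1.96 ± 0.35, adjusted p = 5.05e-04), the metabotropic receptor Grm5 (0.74 ± 0.29, adjusted p = 0.048) and the kinases Prkce (0.93 ± 0.16, adjusted p = 3.7e-04) and Prkcz (1.99 ± 0.49, adjusted p = 0.0047) rose. Trpm2 (-2.31 ± 0.29, adjusted p = 3.28e-05), a channel of the same family as Trpm1, Gng3 (-0.84 ± 0.17, adjusted p = 0.0013), Pcp4 (-1.27 ± 0.14, adjusted p = 9.02e-06) and the rod transducin Gnat1 (-1.14 ± 0.28, adjusted p = 0.0049, all by edgeR) fell. The summed rod markers in the same cells were higher in Phase I ROP, as given above. Rgs16 and Prkcz, which are counted among the 6 that rose, passed the filter through the Phase I ROP mice alone, so that their rise was favoured by the filter. Without the subcluster mostly of control cells, 6 of 19 relatives tested were called higher and 3 lower by edgeR, against 14.4% and 17.6% of all genes. Gnai3, Rgs16 and Prkce were among those called higher, and Trpm2, Gng3 and Pcp4 among those called lower.

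Between the ω-6 and the ω-3 diet, 0 of the 10 members were called in ON bipolar cells by edgeR, with 0 members at an unadjusted p under 0.05 and 0 by DESeq2. Of all 10588 genes tested in these cells 0 were called (0.00%), and 4.29% had an unadjusted p under 0.05. The test compared 3 mice with 2. Trpm1 was at 393 and 1380 CPM in the ω-3 mice and at 780, 1069 and 471 CPM in the ω-6 mice. Both the highest and the lowest value came from the ω-3 diet, and the log2 difference of ω-6 minus ω-3 was -0.13 ± 0.40. Gpr179 was at 184 and 404 CPM in the ω-3 mice and at 204, 209 and 142 CPM in the ω-6 mice (log2 difference -0.60 ± 0.30). Pcp2 was at 457 and 1056 CPM against 1047, 1226 and 723 CPM (0.46 ± 0.30), and Gng13 at 55.5 and 136 CPM against 158, 105 and 75.3 CPM (0.30 ± 0.37).

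The remaining members differed by -0.14 to 0.20 on the log2 scale, with SEs of 0.20 to 0.52: Grm6 by -0.11 ± 0.26, Gnao1 by 0.20 ± 0.20, Gnb3 by 0.20 ± 0.22, Nyx by 0.07 ± 0.52, Rgs11 by -0.01 ± 0.36 and Prkca by -0.14 ± 0.24. For 9 of the 10 members, ω-3 replicate 1 had the lowest value of the 5 mice. In that mouse 26.6% of the bipolar cells fell in a subcluster led by Emp1, Gsto1 and Asprv1 with Fabp7 and Crym, against 3.87% in ω-3 replicate 2 and 4.36 to 13.4% in the ω-6 mice, and that subcluster had a median over STZ mice of 0 CPM for Grm6, Trpm1, Gng13, Nyx, Gpr179 and Rgs11, of 244 CPM for Gnb3, 178 CPM for Gnao1, 70.8 CPM for Pcp2 and 47.9 CPM for Prkca. Without that subcluster and 3 others led by genes of other cell types or of no bipolar type, the difference was -0.08 for Trpm1, 0.46 for Pcp2 and -0.62 for Gpr179, and no member was called by edgeR, although Gpr179 and Pcp2 had an unadjusted p under 0.05. ON bipolar cells were 9.80 and 13.97% of all cells in the ω-3 mice and 8.90 to 12.4% in the ω-6 mice (exact two-sided permutation test, p = 0.60, where 0.20 is the smallest p that 3 against 2 mice can give).

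In the other classes 0 members were called between the diets as well by edgeR, where 0.0159% of all genes were called in rods and 0.00% in the others. By unadjusted p under 0.05 in the edgeR fits there were 3 of 4 members tested in Müller glia, 2 of 7 in amacrine cells, 2 of 10 in the whole retina, 1 of 5 in rods and 1 of 10 in all bipolar cells. The share of all genes under that p was 3.56% in Müller glia, 9.89% in amacrine cells, 7.06% in the whole retina and 4.21% in all bipolar cells, and in rods it was 1389 of 12602 genes. Prkca was among them in rods (-0.45 ± 0.16), amacrine cells (-0.41 ± 0.15) and Müller glia (-1.02 ± 0.42), with adjusted p-values of 0.38, 0.49 and 0.99 by edgeR. In amacrine cells Prkca was at 192 and 201 CPM in the ω-3 mice and at 149, 131 and 139 CPM in the ω-6 mice, without overlap. In Müller glia Trpm1 was at 22.2 and 85.4 CPM against 3.28, 14.3 and 25.7 CPM, and Gnb3 at 80.9 and 128 CPM against 13.1, 78.9 and 46.3 CPM.

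The genes most like each member over the 23 clusters of at least 50 cells, by Pearson's r of log2(CPM + 1), were often the genes that overlap it. For Gng13 this was Chtf18 (r = 0.96), for Grm6 Gm12660 (r = 0.92), for Pcp2 Pet100 (r = 0.89) and for Rgs11 Arhgdig (r = 0.86). Pcp2 was next for Grm6 (r = 0.79) and was the only member among the 3 most like another. Gnao1 was most like Cadps (r = 0.95), Arhgap33 and Stmn3, genes found in many neurons, and Gnb3 was close to Cacna2d4 (r = 0.93), whose product serves the synapse of photoreceptors. Gpr179 was most like 8030445P17Rik (r = 0.84), Trpm1 like 5033426E14Rik (r = 0.77), Nyx like 9830132P13Rik (r = 0.76) and Prkca like D030056L22Rik (r = 0.87). The clusters share their libraries, and these values are a description.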

How the data were processed

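Per the labels and the study's methods, the deposited counts are UMIs per gene and cell from inDrop v3 libraries, which the authors counted on mouse transcripts and did not normalize or pool over mice. Submitters' notes name mm10, GRCm38.p6 and GENCODE M21, the last of which was used here for lengths and overlaps, whereas the study's methods name a later GENCODE release for the counting. Cells with more than 300 genes were clustered with Seurat 5.3.0 on 2000 variable genes and named from markers. Scrublet (scanpy 1.11.5) marked fewer than 0.5% of the cells and so did not work as a doublet caller, and no cell was removed by it.

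UMIs were summed per mouse and class, filtered with filterByExpr, scaled by TMM and tested with edgeR 4.0.16 (R 4.3.3), with Benjamini-Hochberg adjustment over all genes tested and a threshold of 0.05. The procedure was tested on simulated counts with a fixed spread and known changes in a limited set of genes. The simulation held no change in the mix of cells and no trend with transcript length, so it does not cover these. CPM is UMIs per 1000000 UMIs of the class without TMM. Total UMIs per mouse were 2565568 to 6517776, and intervals cover counting error only. Groups came from the labels. Same-numbered Phase I ROP and control mice did not deviate together, and the diet groups share only a number. The tests named are two-sided, and p-values measure the spread between single mice.

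Named genes were the members, partners and relatives of the cascade, the 3 genes most like each member, and class markers, some of which are not reported here. Members and lists were chosen with earlier results of these data known. Alternatives were DESeq2 1.42.0, other scalings and filters, all groups in 1 fit, a replicate block, thinning, other cell sets and leaving out each mouse.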

Additional observations from a re-analysis of the deposited data

Results flagged for a closer look

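Trpm1 went in opposite directions in ON bipolar cells and in rods. In ON bipolar cells the log2 difference of Phase I ROP minus control was 1.07, with all 3 Phase I ROP mice above all 3 control mice. In rods it was -2.48, with all 3 Phase I ROP mice below all 3 control mice, at levels that had a median over mice of 0.95% of those in ON bipolar cells. In rods Trpm1 passed the filter on low counts through the control mice alone, so that a lower value in Phase I ROP was favoured by the filter, and in ON bipolar cells the difference was 0.16 without the subcluster that came mostly from control mice. Within the bipolar subcluster of 565 cells, Trpm1 was higher in the Phase I ROP mice than in all control mice, as a description with no test. The difference between ON bipolar cells and rods was not tested. The share of bipolar cells in the retina was also lower in Phase I ROP, at 15.9 to 18.0% of all cells against 29.9 to 33.7% in control, and its part in the rod values was not tested.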

How the results depend on the processing

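Of 1043 recomputed values, 934 stayed the same, 41 crossed the threshold, 36 counts or shares moved and 32 reversed, all of the last among changes that were not called. A log2 difference stayed the same if it kept its direction and its side of the threshold. A count or share stayed the same if it lay within a set margin of the main value. In ON bipolar cells of Phase I ROP, the calls of Gnao1, Gng13 and Pcp2 held in all 19 alternatives, those of Trpm1, Gpr179 and Prkca in all but 1, and Nyx lost its call in 2. The exception was the fit without the bipolar subcluster mostly of control mice, chosen after seeing the data, where the number of members called moved from 7 to 4. Trpm1 in the whole retina lost its call in 10 of 15 alternatives. Depth limits Nyx most, with 3 to 30 UMIs per mouse. The causes of the changes below were not tested.

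The number of members called in Phase I ROP moved from 1 to 2 in Grik1 cone bipolar cells without a filter, with all 4 groups in 1 fit or with overlapping genes added, and ran from 1 to 3 when 1 mouse was left out. In rods it moved from 3 to 5 without a filter or with clustering without the members, to 6 with all 4 groups and to 1 with cells of more than 500 genes. In cones it moved from 1 to 0 with thinned sums and ran from 0 to 1 with 1 mouse left out. In Müller glia it moved from 1 to 0 with DESeq2 or without the top 5% of Scrublet scores, to 2 without a filter or with all 4 groups, and ran from 0 to 1 with 1 mouse left out. Of the bipolar and amacrine difference, 0 to 1 members were called with 1 mouse left out.

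In ON bipolar cells of Phase I ROP, Grm6 turned to 0.028 without the top Scrublet scores, 0.11 without the doubtful subclusters and 0.34 with total UMIs, and ran from -0.23 to 0.047 with 1 mouse left out. Gnb3 turned to 0.093 without the doubtful subclusters and 0.33 with total UMIs, and Rgs11 to -0.068 with overlapping genes added. Overlapping genes, doubtful subclusters and total UMIs were chosen after seeing the data.

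Between the diets, Grm6 turned to 0.015 and Nyx to -0.05955 with thinned sums, and Rgs11 to 0.024 with more than 500 genes, 0.0012 with clustering without the members, 0.13 without top Scrublet scores, 0.17 with thinned sums and 0.11 without doubtful subclusters. With 1 mouse left out, the log2 difference ran from -0.46 to 0.37 for Grm6, -0.75 to 1.01 for Trpm1, -0.084 to 0.56 for Gnao1, -0.068 to 0.54 for Gnb3, -0.18 to 1.05 for Gng13, -0.49 to 1.06 for Nyx, -1.03 to 0.045 for Gpr179, -0.46 to 0.67 for Rgs11 and -0.50 to 0.37 for Prkca.

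The replicate block left the count at 7 members in ON bipolar cells of Phase I ROP and at 0 between the diets, where it turned Grm6 to 0.066, Trpm1 to 0.33 and Prkca to 0.014. It changed no call of a member in ON bipolar cells. Correlations of same-numbered ON bipolar sums were -0.01, 0.05 and 0.12 for Phase I ROP and control and 0.12 and 0.32 for the diets.

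Without thinning, the mean share of ON bipolar cells with a UMI was 42.8% for Grm6, 70.2% for Gnao1, 66.3% for Gnb3, 23.3% for Gng13, 3.76% for Nyx, 24.7% for Gpr179, 10.6% for Rgs11, 40.8% for Pcp2 and 35.3% for Prkca. At 500 UMIs it was 15.8% for Grm6 and 34.1% for Gnb3.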
